A study of Mus musculus with 13 samples.

Results

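The genes of mitochondrial complex I and complex II were read out by poly(A) RNA-seq in 13 libraries from mouse cortex. The genes were taken by name from the TPM table: every entry whose symbol begins with Nduf and a letter, with Sdha to Sdhd, or with Sdhaf. The rule matched 58 of 53832 entries, of which 4 have names ending in -ps and were left out, so 54 genes remained. By role, 7 of them encode the nuclear core subunits of complex I, 26 its accessory subunits, 8 Ndufaf assembly factors, 4 the complex II subunits and 4 the Sdhaf assembly factors. Another 2 carry an Nduf name without belonging to complex I (Ndufa4, now counted as a subunit of complex IV, and its relative Ndufa4l2), and 3 are annotated as pseudogenes (Ndufa11b, Ndufb4c and Ndufs6b). The accessory genes Ndufb2, Ndufb8 and Ndufb9 were not analysed here. Coordinates are those of the GENCODE M21 annotation on GRCm38, matched by symbol.

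The study asked about trazodone, an antidepressant drug acting on serotonin receptors and on the reuptake of serotonin, in APP/PS1 mice, a transgenic amyloid model of Alzheimer's disease. The libraries fall into 3 groups: trazodone-treated APP/PS1 mice (n = 4), APP/PS1 mice on distilled water (n = 3) and WT mice on distilled water (n = 6). Every sample title states 2 weeks. Age, sex, the trazodone dose, the APP/PS1 line and the promoter of its transgenes are not stated in the labels. There was no trazodone-treated WT group. The tissue was the cortex of the right hemisphere, taken after perfusion. Libraries were read on either of a pair of sequencers, and which one read each library is not stated, so that difference and the groups cannot be told apart. Nothing states that each library came from a separate animal, so the p-values measure the spread between these libraries.

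Complex I is the entry point of electrons from NADH into the respiratory chain. Its core subunits carry the flavin, the iron-sulfur clusters and the quinone pocket, with the membrane-bound core encoded in mitochondrial DNA, and its many accessory subunits wrap and stabilise the core. Assembly factors help build the separate modules and are not part of the finished enzyme. Complex II, succinate dehydrogenase, passes electrons from succinate to the same quinone pool and is encoded wholly in the nucleus. Neurons in cortex draw most of their ATP from this chain.

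Estimated depth was 34.0 to 37.1 M fragments in the APP/PS1 trazodone libraries, 31.0 to 32.4 M in the APP/PS1 water libraries and 32.7 to 34.3 M in the WT water libraries. App averaged 2702 ± 185 TPM in APP/PS1 trazodone, 1928 ± 188 TPM in APP/PS1 water and 905 ± 121 TPM in WT water (SD), and Prnp averaged 3057 ± 153, 3254 ± 79.6 and 912 ± 37.6 TPM in these groups. Mitochondrially encoded transcripts took 8.96 to 10.7% of the TPM in APP/PS1 trazodone, 13.1 to 15.0% in APP/PS1 water and 9.07 to 12.3% in WT water. The slope of expression on GC content, as log2 units per 10 percentage points relative to the mean of all libraries, was 0.03 to 0.14 in APP/PS1 trazodone, -0.24 to -0.16 in APP/PS1 water and -0.04 to 0.10 in WT water. Of 8 excitatory neuron markers, all detected, the summed level was 4707 to 5209 TPM in APP/PS1 trazodone, 3190 to 3393 TPM in APP/PS1 water and 3486 to 5335 TPM in WT water. Summed over 8 microglial markers, the level was 907 to 1098 TPM in APP/PS1 trazodone, 971 to 1165 TPM in APP/PS1 water and 344 to 421 TPM in WT water. For 7 astrocyte markers it was 3064 to 3400, 2852 to 3276 and 1921 to 2229 TPM in the same order of groups. For 6 inhibitory neuron markers it was 1053 to 1220, 885 to 1201 and 1289 to 1518 TPM, and for 6 oligodendrocyte markers 2314 to 3144, 1558 to 2422 and 1803 to 3200.4 TPM. The 4 choroid plexus markers summed to at most 28.8 TPM in the APP/PS1 libraries and reached 2201 TPM in 1 WT water library.

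In APP/PS1 mice on water, 19 of the 52 tested genes were lower than in WT mice on water and 0 were higher. A gene was called when the adjusted p of limma was under 0.05, on log2(TPM + 0.5). At an unadjusted p under 0.05, 22 were lower and 3 higher (Ndufa1, Ndufaf1 and Ndufb4c). Of all 18612 genes tested, 17.5% were called lower and 6.19% higher, against 36.5% of the complex I and II genes called lower. The called genes were 11 of 26 accessory subunits, 1 of 7 core subunits, 3 of 8 Ndufaf factors, 1 of 4 complex II subunits, 2 of 4 Sdhaf factors and Ndufa4l2. The median log2 fold change over the 52 genes was -0.10 and that over all genes was also -0.10. By class the median log2 fold change was -0.28 for the accessory genes, -0.08 for the core, 0.04 for the Ndufaf factors, -0.04 for complex II and -0.13 for the Sdhaf factors. Under the scaling alternatives and the GC and length correction the accessory median stayed below 0 (-0.13 after quantile normalization), whereas the core median turned above 0 in all but the rescaling without mitochondrially encoded genes. These classes were set side by side and not tested against each other.

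These counts move with the scaling of the libraries. After median-ratio scaling 12 members were lower and 2 higher, after quantile normalization 11 lower and 5 higher, and on FPKM 16 lower and 2 higher. Of all genes, 11% were called lower and 10.8% higher after median-ratio scaling. These shares were 11.1% and 11.4% after quantile normalization and 14.2% and 11.7% on FPKM. The median over members turned to 0.053 after quantile normalization. After a correction of each library for GC content and transcript length, 9 members were lower (6 accessory subunits, Ndufs8, Sdhd and Sdhaf4) and Ndufs7 was higher. In that fit 6.04% of all genes were called lower and 6.35% higher. Leaving out APP/PS1 water replicate 1 gave 15 lower and 1 higher with a median of -0.04, beside 15.7% and 5.09% of all genes. Leaving out APP/PS1 water replicate 3 gave 21 lower with a median of -0.20, beside 13.3% of all genes lower. WT water replicate 6 stood apart from the other WT libraries in several members. Without it 22 members were lower, beside 18.1% of all genes. In bulk tissue, fewer cells of a type and less RNA per cell cannot be told apart. The excitatory neuron sum and the GC slope given above were lowest in the same 3 libraries, and the part of the cell type markers in these results was not tested.

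With trazodone, 20 of the 52 genes were higher in APP/PS1 mice than in APP/PS1 mice on water, and 3 were lower. Among all genes tested, 12.5% were called higher and 3.92% lower, against 38.5% and 5.77% of the members. The higher genes were 12 of 26 accessory subunits, 1 of 7 core subunits, 3 of 8 Ndufaf factors, 1 of 4 complex II subunits, 2 of 4 Sdhaf factors and Ndufa4l2. The lower ones were the Ndufaf factors Ndufaf1 and Ndufaf7 and the pseudogene Ndufb4c. The median log2 fold change was 0.13 over members and 0.07 over all genes, but after quantile normalization the members' median was -0.018. Quantile normalization left 16 higher and 5 lower, median-ratio scaling 16 and 3, and the GC and length correction 10 and 2. Of all genes, 8.09% were called higher and 8.5% lower after quantile normalization, and 8.8% and 7.44% after median-ratio scaling. In the corrected fit 2.40% of all genes were called higher and 1.62% lower. The count of lower genes was 4 without APP/PS1 water replicate 1, beside 2.54% of all genes lower. It was 1 without APP/PS1 trazodone replicate 2 or APP/PS1 water replicate 2 (2.29% and 2.12% of all genes). Without APP/PS1 water replicate 3 it was 0 (3.16% of all genes). The median was 0.02 without APP/PS1 water replicate 1 and 0.22 without APP/PS1 water replicate 3. Both comparisons use the same 3 APP/PS1 water libraries, so a low value in those libraries enters each of them.

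Set against WT mice on water, the APP/PS1 mice on trazodone had 0 of 52 genes called in either direction, beside 1.97% of all genes called higher and 0.258% called lower. At an unadjusted p under 0.05 limma had 6 members higher (Ndufa1, Ndufa3, Ndufaf8, Ndufb11, Ndufc2 and Ndufv3) and 1 lower (Ndufa10). The median log2 fold change was 0.06 over members and -0.04 over all genes. A gene that misses the threshold is not shown to be at the WT level. The accessory gene Ndufa10, which has the fold of a nucleoside kinase, was the nearest to a call: its log2 fold change was -0.20 ± 0.05, adjusted p = 0.0782, and adjusted p = 0.0239 after the GC and length correction and 0.025 without WT water replicate 6.

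**Figure D1:**
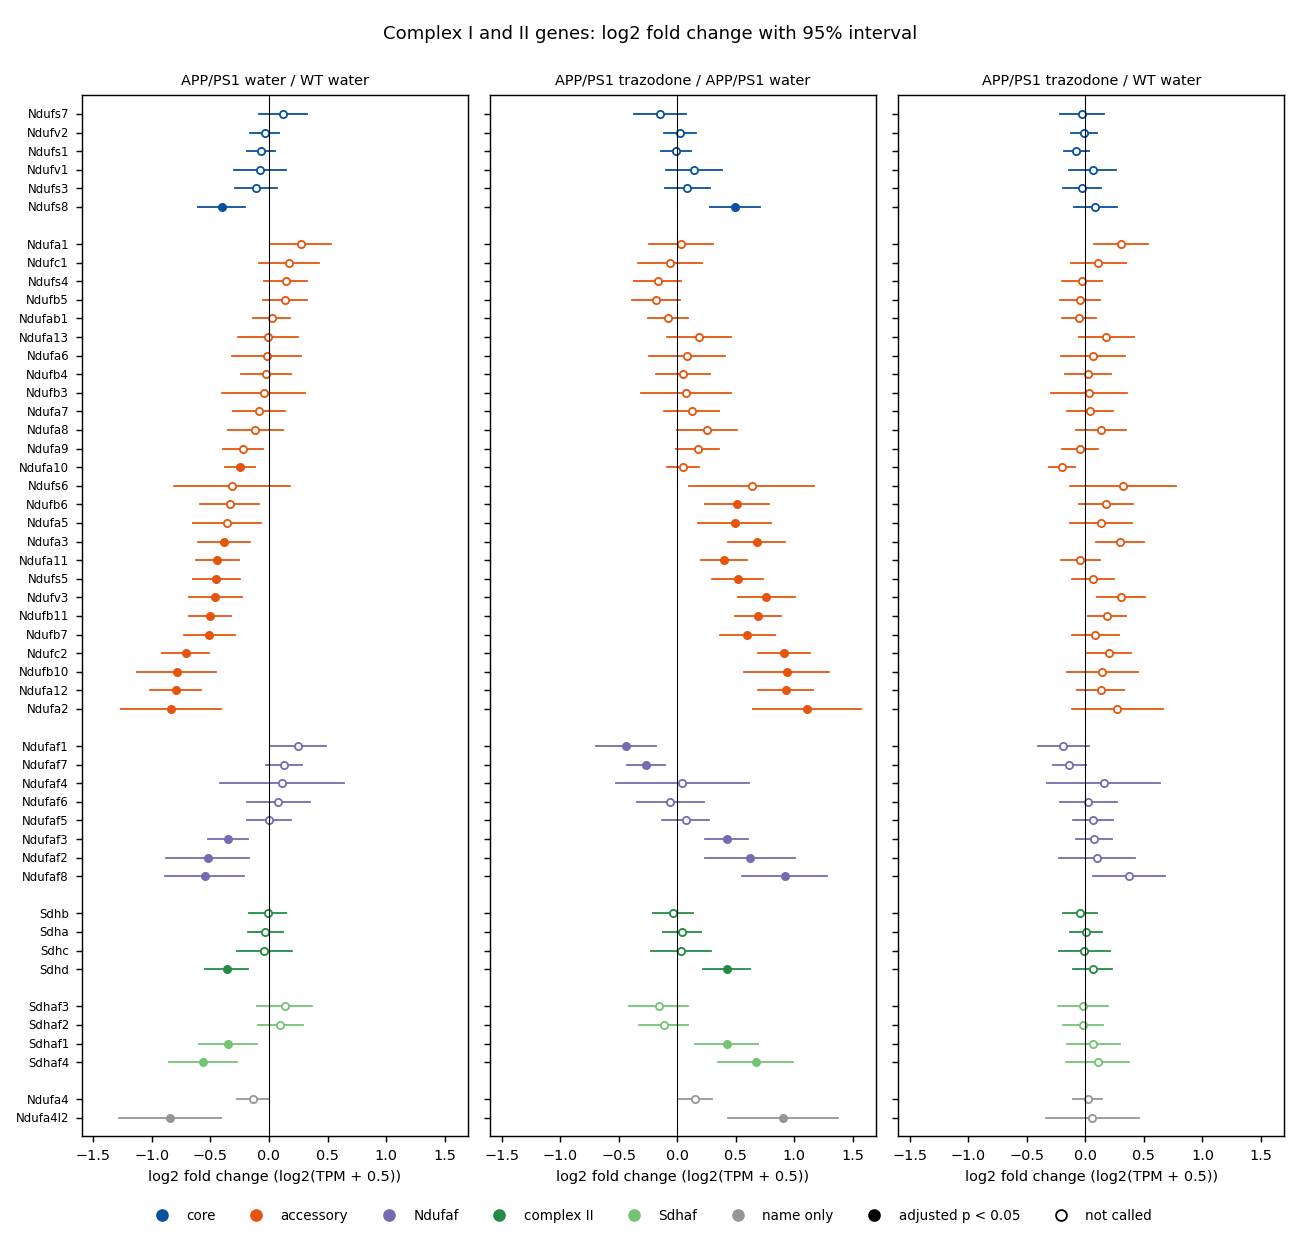
Log2 fold change (x axis, log2(TPM + 0.5) scale) of the members that are not pseudogenes (1 core gene is not drawn), by class, in APP/PS1 water over WT water, APP/PS1 trazodone over APP/PS1 water and APP/PS1 trazodone over WT water; points are limma estimates, bars their 95% intervals, and filled points have an adjusted p under 0.05. The filled points lie left of 0 in the first panel (19 genes) and, but for Ndufaf1 and Ndufaf7, right of 0 in the middle panel, and the last panel has none.

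The promoters of the members were searched for the letters of 4 known motifs, because nuclear genes of the respiratory chain are textbook targets of nuclear respiratory factor 1 (NRF1). RefSeq windows on GRCm38.p6, from 250 bases before to 50 after each start, were held for 45 members. On either strand, the letters GCGCNTGCG of the NRF1 motif stood in 15 of the 45 genes (33.3%), beside 6.31% of 32851 single windows of all genes. They were found in 9 of 25 accessory genes, 0 of 5 core genes, 2 of 7 Ndufaf genes, 2 of 3 complex II genes and 2 of 4 Sdhaf genes. The ETS letters CCGGAAG were in 24.4% of the 45 genes and 8.86% of all windows, the YY1 letters AANATGGCG in 9 of 45 and 2.38%, and CCAAT in 35.6% and 37.4%. A member counted when any of its windows held the letters, whereas the share of all windows counts each window alone. The 2 shares are therefore in unlike units, which raises that of the members. A match is a run of letters and not a measured binding site.

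Genes with and without the NRF1 letters were called at like rates, with no test between them: 6 of the 15 genes with them and 11 of the 30 without were called lower in APP/PS1 water against WT water. With trazodone, 7 of the 15 and 11 of the 30 were called higher against APP/PS1 water. Shown first are the 30 bases around the first match in 6 genes called lower in APP/PS1 water, then in 3 that were not called in either comparison (5′ to 3′ on the strand of the gene; capitals mark the motif letters, read on the gene's strand also where the match is on the other one). They lie at chr17:56717692-56717721 (plus strand), chr10:94198905-94198934 (plus strand), chr17:24724430-24724459 (minus strand), chr4:123718264-123718293 (minus strand), chr9:50603908-50603937 (minus strand), chr1:24005613-24005642 (minus strand), chr2:36049349-36049378 (minus strand), chr16:37654539-37654568 (minus strand) and chr13:74350318-74350347 (minus strand).
Ndufa11: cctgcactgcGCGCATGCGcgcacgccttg
Ndufa12: ctccagctctGCGCCTGCGtagaacgacct
Ndufb10: ctgcccactaCGCAGGCGCagctgtcacct
Ndufs5: ctgcttgctgCGCAGGCGCagacccgctgt
Sdhd: cgctggggtgCGCACGCGCggtggcagcgc
Sdhaf4: ccaccttggtGCGCGTGCGcagacgctgtg
Ndufa8: ctagagcagtGCGCTTGCGcgtcgctggag
Ndufb4: agaagcagtgCGCACGCGCagaatacgcgg
Sdha: gtttacagggCGCAGGCGCaccaccactca

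Core and accessory genes without the NRF1 letters also differed in whether they were called. The 110 bases before the start of Ndufs8 (the 1 core gene called lower), of Ndufv2 (a core gene not called) and of Ndufc2 (an accessory gene called lower) are shown for that contrast. The Ndufs8 stretch holds CCAAT at 2 places (in capitals), and the stretches of Ndufv2 and Ndufc2 hold none of the 4 motifs. In the longer windows searched, Ndufc2 has CCAAT at position -129 from the start. Ndufs8 has a further CCAAT at -120 and the ETS letters at 16. The stretches lie at chr19:3912775-3912884 (minus strand), chr17:66101560-66101669 (minus strand) and chr7:97399893-97400002 (plus strand).
Ndufs8: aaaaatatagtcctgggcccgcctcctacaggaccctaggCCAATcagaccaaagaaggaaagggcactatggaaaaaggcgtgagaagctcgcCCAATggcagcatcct
Ndufv2: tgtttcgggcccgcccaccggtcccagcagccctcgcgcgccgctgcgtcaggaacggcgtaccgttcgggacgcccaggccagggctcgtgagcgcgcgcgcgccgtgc
Ndufc2: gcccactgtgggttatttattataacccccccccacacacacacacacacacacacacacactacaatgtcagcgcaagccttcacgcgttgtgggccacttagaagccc

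Of the 7 nuclear core subunits, Ndufs8 was lower in APP/PS1 mice on water and higher with trazodone, and the other 6 were called in neither comparison on TPM with all libraries. Ndufs8 (MSTRG.11090, chr19:3908863-3912774, minus strand) carries iron-sulfur clusters on the route of electrons toward the quinone. It was at 149, 156, 139 and 163 TPM in the APP/PS1 trazodone libraries, at 97.4, 105 and 122 TPM in the APP/PS1 water libraries and at 124 to 159 TPM (median 146) in the WT water libraries. All 3 APP/PS1 water values lay below every other library. The log2 fold change was -0.41 ± 0.09 in APP/PS1 water over WT water (adjusted p = 0.00605) and 0.49 ± 0.10 in trazodone over APP/PS1 water (adjusted p = 0.00509). After the GC and length correction it kept the first call (log2 fold change -0.26, adjusted p = 0.0462) and missed the threshold in the second (0.26, adjusted p = 0.105). Quantile normalization ended the first call.

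Ndufs1, the largest core subunit of the NADH-oxidising module, had overlapping values in all groups, with 159, 159, 147 and 153 TPM in APP/PS1 trazodone, 162, 159 and 145 TPM in APP/PS1 water and 154 to 174 TPM (median 163) in WT water. Its log2 fold change in APP/PS1 water over WT water was -0.07 ± 0.06 (adjusted p = 0.406). Ndufv1, which binds NADH and the flavin, had 152, 155, 132 and 150.1 TPM in APP/PS1 trazodone, 110.1, 137 and 157 TPM in APP/PS1 water and 125 to 155 TPM (median 141) in WT water, so the 3 APP/PS1 water values spread across the whole WT range. Ndufv2, its iron-sulfur partner, averaged 138 ± 8.62 TPM in APP/PS1 trazodone, 135 ± 4.36 TPM in APP/PS1 water and 139 ± 5.73 TPM in WT water (SD). Ndufs3, an early scaffold of the Q module, averaged 172 ± 8.23, 163 ± 26.3 and 175 ± 8.36 TPM in the same order. None of these 4 genes was called on TPM with all libraries. Ndufs3 was called lower in APP/PS1 water than in WT water without APP/PS1 water replicate 3 (log2 fold change -0.23, adjusted p = 0.0472, against -0.11 ± 0.08 with it), and Ndufs1 was called lower with trazodone than in APP/PS1 water after quantile normalization (-0.17, adjusted p = 0.0443).

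Ndufs7, which holds the last iron-sulfur cluster before the quinone, depended on the correction. It was at 225, 224, 185 and 231 TPM in APP/PS1 trazodone, at 206, 234 and 283 TPM in APP/PS1 water and at 202 to 236 TPM (median 219.9) in WT water. On TPM the log2 fold change in APP/PS1 water over WT water was 0.12 ± 0.10 (adjusted p = 0.401). With the GC and length correction it was 0.39 (adjusted p = 0.00425), and in trazodone over APP/PS1 water it was -0.51 (adjusted p = 0.00459). Its transcript has a GC content of 59.6%, the highest of the core genes, whose lowest is 42.0%.

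**Figure D2:**
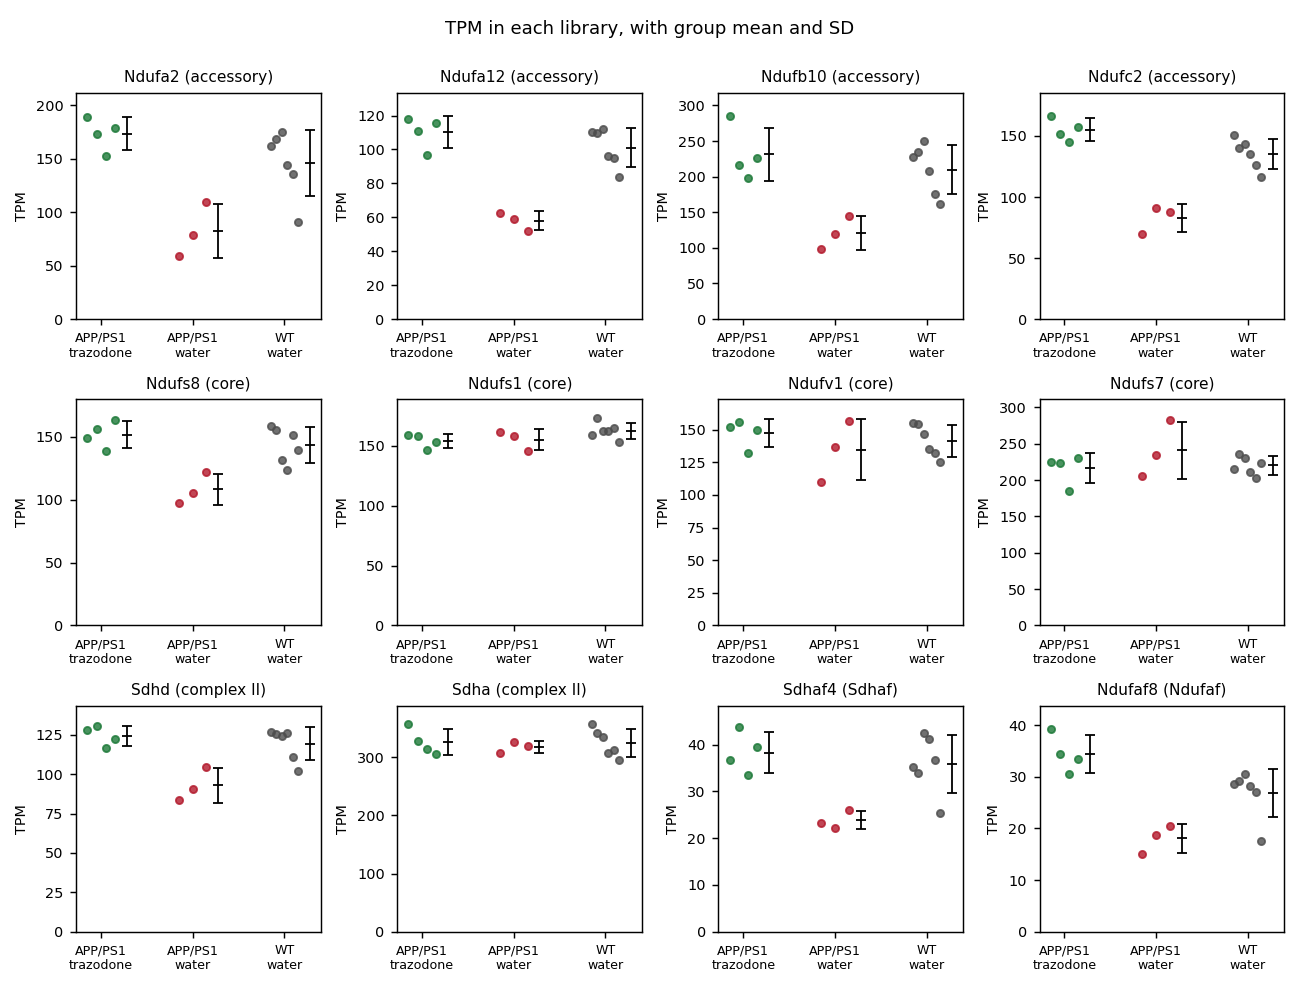
TPM (y axis, from 0) of 12 members in each library, as points for APP/PS1 trazodone (n = 4), APP/PS1 water (n = 3) and WT water (n = 6), with the group mean and SD beside them. Ndufa12, Ndufb10 and Ndufc2 lie lower in all 3 APP/PS1 water libraries than in every other library, whereas the groups overlap for Ndufs1, Ndufv1, Ndufs7 and Sdha.

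Accessory subunits held 11 of the 19 lower and 12 of the 20 higher calls. By position in the enzyme, using textbook module assignments, 3 of 10 N module genes (core and accessory), 1 of 6 Q module genes, 5 of 9 proximal membrane genes and 3 of 7 distal membrane genes were lower in APP/PS1 water than in WT water, beside 17.5% of all genes. With trazodone against APP/PS1 water, 3, 2, 4 and 4 genes of these modules were higher, beside 12.5% of all genes. Summed over the 26 accessory genes, the level was 3685 ± 288 TPM in APP/PS1 trazodone, 2858 ± 309 TPM in APP/PS1 water and 3440 ± 285 TPM in WT water (SD). The core sum was 1238 ± 49.2, 1191 ± 107 and 1253 ± 50.7 TPM in that order, so its differences between groups were smaller than the spread of the APP/PS1 water libraries.

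In the NADH-oxidising N module, Ndufa2, Ndufa12 and Ndufv3 were lower in APP/PS1 water and higher with trazodone. Ndufa2 is a small subunit with a thioredoxin-like fold. It was at 189, 173, 153 and 179 TPM in APP/PS1 trazodone, at 59.3, 78.4 and 109.99 TPM in APP/PS1 water and at 91.2 to 175 TPM (median 153) in WT water. Trazodone and water libraries of APP/PS1 mice did not overlap, but 1 APP/PS1 water library lay above the lowest WT library, WT water replicate 6. The log2 fold change was -0.84 ± 0.20 in APP/PS1 water over WT water (adjusted p = 0.00795) and 1.11 ± 0.22 in trazodone over APP/PS1 water (adjusted p = 0.00382), the largest of the accessory genes in both comparisons. Ndufa12 (MSTRG.2667, chr10:94198720-94221443, plus strand) sits where its relative Ndufaf2 is held during assembly. Its values were 118, 111, 96.7 and 116 TPM in APP/PS1 trazodone, 62.7, 59.2 and 51.7 TPM in APP/PS1 water and 83.7 to 112 TPM (median 103) in WT water. The APP/PS1 water libraries lay below all 10 others, with a log2 fold change of -0.80 ± 0.10 over WT water (adjusted p = 0.000114) and of 0.93 ± 0.11 for trazodone over APP/PS1 water (adjusted p = 0.000202). Its pseudogene Ndufa12-ps, whose reads can be hard to tell from those of Ndufa12, had 36.6, 2.06, 2.71 and 17.4 TPM in APP/PS1 trazodone, 20.6, 1.68 and 22.1 TPM in APP/PS1 water and 1.90 to 29.0 TPM (median 17.3) in WT water, with no order by group. Both genes kept their calls after the GC and length correction, where Ndufa12 had log2 fold changes of -0.71 and 0.79.

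Ndufv3, a small subunit beside the flavin site with tissue-dependent isoforms, was at 140.4, 122, 118 and 131 TPM in APP/PS1 trazodone, at 66.0, 75.3 and 85.1 TPM in APP/PS1 water and at 87.6 to 116 TPM (median 105) in WT water. The 3 groups did not overlap, with trazodone above WT water and APP/PS1 water below it. Its log2 fold change was -0.46 ± 0.10 in APP/PS1 water over WT water (adjusted p = 0.00597), 0.76 ± 0.11 in trazodone over APP/PS1 water (adjusted p = 0.00076) and 0.31 ± 0.09 in trazodone over WT water (adjusted p = 0.144). After the GC and length correction only the second was called. Ndufs4 and Ndufs6, which are needed for a stable N module, were called in neither comparison on TPM (Ndufs4 was higher in APP/PS1 water after quantile normalization, adjusted p = 0.0436): Ndufs4 averaged 53.0 ± 1.97 TPM in APP/PS1 trazodone, 59.7 ± 5.43 TPM in APP/PS1 water and 54.1 ± 5.58 TPM in WT water. Ndufs6 had 104, 73.6, 65.3 and 67.7 TPM in APP/PS1 trazodone, 38.1, 53.7 and 56.9 TPM in APP/PS1 water and 40.9 to 82.4 TPM (median 64.2) in WT water, a spread that left its log2 fold change of 0.64 ± 0.25 with trazodone at adjusted p = 0.101. Ndufa6 and Ndufa7, other accessory members of this module, also passed no test.

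In the proximal membrane arm, Ndufc2, Ndufs5, Ndufa11 and Ndufa3 were lower in APP/PS1 water and higher with trazodone. Ndufc2 (MSTRG.21018, chr7:97400003-97407802, plus strand) was at 167, 152, 145 and 158 TPM in APP/PS1 trazodone, at 69.4, 90.8 and 88.1 TPM in APP/PS1 water and at 117 to 150.5 TPM (median 138) in WT water. Its APP/PS1 water values lay well below all others, with a log2 fold change of -0.71 ± 0.09 over WT water (adjusted p = 0.000172) and of 0.91 ± 0.10 for trazodone over APP/PS1 water (adjusted p = 0.000152). The correction hardly moved it (-0.69 and 0.85). Ndufs5 (MSTRG.15915, chr4:123712710-123718202, minus strand), a disulfide-bonded subunit on the intermembrane side, had 244, 229.8, 213 and 239 TPM in APP/PS1 trazodone, 156, 182 and 148 TPM in APP/PS1 water and 187 to 259 TPM (median 219) in WT water. Its log2 fold changes were -0.45 ± 0.09 (adjusted p = 0.00328) for APP/PS1 water over WT water and 0.52 ± 0.10 (adjusted p = 0.00377) for trazodone over APP/PS1 water, and both calls were kept after the correction.

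Ndufa11 (MSTRG.10131, chr17:56717767-56722141, plus strand), a membrane subunit at the contact with complex III in supercomplexes, had 175, 163, 143 and 182 TPM in APP/PS1 trazodone, 124, 133 and 119 TPM in APP/PS1 water and 158 to 191 TPM (median 164) in WT water. It was lower in APP/PS1 water than in WT water (-0.44 ± 0.08, adjusted p = 0.0021) and higher with trazodone (0.40 ± 0.09, adjusted p = 0.00957), and the correction ended both calls (adjusted p = 0.0529 and 0.591). Ndufa3, a single-pass membrane subunit, had 171, 144, 130.03 and 173 TPM in APP/PS1 trazodone, 85.6, 96.2 and 106 TPM in APP/PS1 water and 111 to 137 TPM (median 129) in WT water. Its call against WT water (log2 fold change -0.39 ± 0.10, adjusted p = 0.016) was lost without APP/PS1 water replicate 1 (adjusted p = 0.0819), after the GC and length correction (0.0645), on FPKM and after median-ratio or quantile scaling, while that for trazodone over APP/PS1 water (0.68 ± 0.11, adjusted p = 0.00157) held without each library. Ndufa10 followed another pattern. It had 144, 157, 150.2 and 148 TPM in APP/PS1 trazodone, 152, 147 and 136 TPM in APP/PS1 water and 156 to 180.1 TPM (median 175) in WT water. Both APP/PS1 groups lay at the low end, with a log2 fold change of -0.25 ± 0.06 for APP/PS1 water over WT water (adjusted p = 0.00735) and 0.05 ± 0.06 for trazodone over APP/PS1 water (adjusted p = 0.658); median-ratio scaling and the GC and length correction ended the first call.

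The distal membrane arm had Ndufb10, Ndufb7 and Ndufb11 lower in APP/PS1 water, and these with Ndufb6 higher with trazodone. Ndufb10 (MSTRG.9519, chr17:24722060-24724478, minus strand), a disulfide-bonded subunit, was at 285, 216, 198 and 227 TPM in APP/PS1 trazodone, at 97.8, 120.2 and 145 TPM in APP/PS1 water and at 162 to 249.7 TPM (median 218) in WT water. The highest APP/PS1 water library lay below the lowest WT library, and the log2 fold changes were -0.79 ± 0.16 over WT water (adjusted p = 0.00247) and 0.93 ± 0.17 for trazodone over APP/PS1 water (adjusted p = 0.00246). Ndufb11 (MSTRG.24723, chrX:20615326-20617619, minus strand), an X-linked membrane subunit, had 166, 159, 146 and 147 TPM in APP/PS1 trazodone, 90.1, 98.2 and 98.4 TPM in APP/PS1 water and 122 to 158 TPM (median 134) in WT water. Its APP/PS1 water libraries were tightly grouped below the rest, with log2 fold changes of -0.50 ± 0.08 over WT water (adjusted p = 0.000838) and 0.69 ± 0.09 for trazodone over APP/PS1 water (adjusted p = 0.000427). Ndufb7, another disulfide-bonded subunit, had 180.2, 156, 134 and 172 TPM in APP/PS1 trazodone, 93.8, 116 and 107 TPM in APP/PS1 water and 138 to 169.6 TPM (median 146) in WT water. Its log2 fold changes were -0.51 ± 0.10 (adjusted p = 0.00256) in APP/PS1 water over WT water and 0.60 ± 0.11 (adjusted p = 0.00274) for trazodone over APP/PS1 water, neither called after the correction, whereas Ndufb10 and Ndufb11 kept both calls. Ndufb6, with all libraries, was called with trazodone only (log2 fold change 0.51 ± 0.13 over APP/PS1 water, adjusted p = 0.0148; 0.0604 without APP/PS1 water replicate 1), beside -0.34 ± 0.12 and adjusted p = 0.0532 in APP/PS1 water over WT water. The trazodone call also ended after the GC and length correction (adjusted p = 0.0719) and after median-ratio scaling, and Ndufb6 was called lower in APP/PS1 water over WT water without APP/PS1 water replicate 3 (0.0487) or WT water replicate 6 (0.00501). Whether those differ was not tested.

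The remaining accessory genes gave few calls. Ndufa5, in the Q module, was higher with trazodone than in APP/PS1 water (by 0.49 ± 0.15 on the log2 scale, adjusted p = 0.0347), a call that ended without APP/PS1 trazodone replicate 1, 2 or 4 or APP/PS1 water replicate 1 or 2 (adjusted p 0.0538 to 0.142) and after the GC and length correction (0.143). Ndufa1, an X-linked subunit of the proximal membrane arm, averaged 132 ± 8.53 TPM in APP/PS1 trazodone, 131 ± 28.8 TPM in APP/PS1 water and 107 ± 10.5 TPM in WT water. It was not called in APP/PS1 water over WT water (log2 fold change 0.27 ± 0.12, adjusted p = 0.119), but it was called higher without APP/PS1 water replicate 1 (adjusted p = 0.00834) and after quantile normalization (adjusted p = 0.0289). Ndufab1, the mitochondrial acyl carrier protein, averaged 119 ± 1.34, 126 ± 5.95 and 124 ± 12.2 TPM in APP/PS1 trazodone, APP/PS1 water and WT water. Ndufa9, which steadies the junction of the arms, had a log2 fold change of -0.22 ± 0.08 in APP/PS1 water over WT water (adjusted p = 0.0549), and was called lower without APP/PS1 water replicate 2 (0.0462) or WT water replicate 6 (0.0169).

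**Figure D3:**
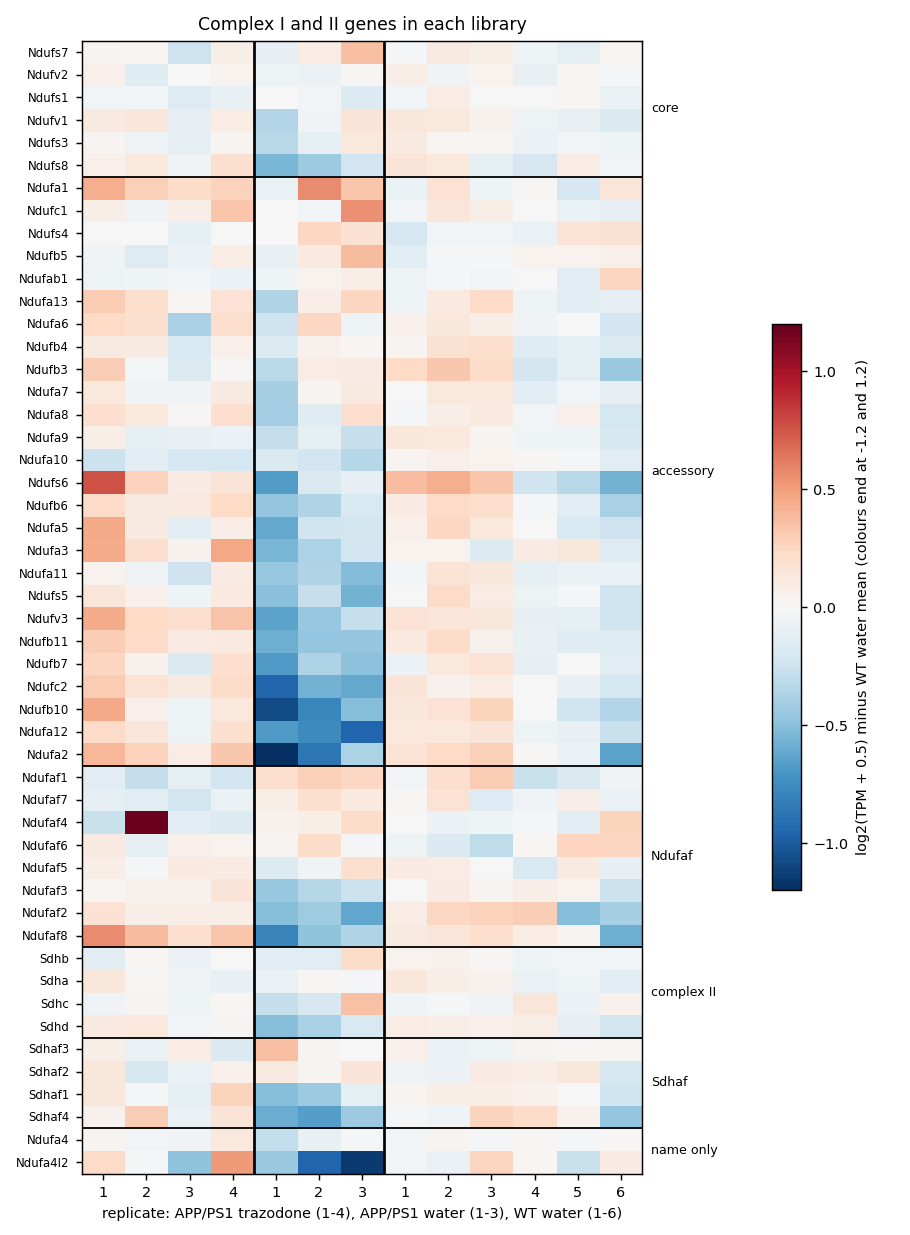
Log2(TPM + 0.5) of the same members in each of the 13 libraries minus its WT water mean (colour scale, blue lower and red higher), with genes in rows by class and libraries in columns by group. The blue cells of the 3 APP/PS1 water libraries are concentrated in the lower part of the accessory block and in Ndufs8, Ndufaf2, Ndufaf3, Ndufaf8, Sdhd, Sdhaf1, Sdhaf4 and Ndufa4l2, and WT water replicate 6 is blue in several of the same rows.

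The Ndufaf assembly factors moved in both directions. Ndufaf8 (MSTRG.4597, chr11:120098928-120100705, plus strand), the partner of the hydroxylase Ndufaf5, had 39.3, 34.5, 30.5 and 33.4 TPM in APP/PS1 trazodone, 15.0, 18.8 and 20.4 TPM in APP/PS1 water and 17.5 to 30.6 TPM (median 28.4) in WT water. It was lower in APP/PS1 water than in WT water (-0.55 ± 0.16, adjusted p = 0.0209; 0.104 without APP/PS1 water replicate 1) and higher with trazodone than in APP/PS1 water (0.92 ± 0.17, adjusted p = 0.00284). WT water replicate 6 alone among the WT libraries lay within the APP/PS1 water range. Ndufaf3, which acts with Ndufaf4 on the early Q module, had 49.8, 50.8, 50.8 and 54.6 TPM in APP/PS1 trazodone, 35.6, 38.4 and 40.8 TPM in APP/PS1 water and 40.9 to 52.4 TPM (median 50.1) in WT water. Its log2 fold changes were -0.35 ± 0.08 in APP/PS1 water over WT water (adjusted p = 0.00573) and 0.42 ± 0.09 for trazodone over APP/PS1 water (adjusted p = 0.00475). Ndufaf2, a late factor that holds the place of Ndufa12, had 32.8, 30.5, 30.8 and 30.8 TPM in APP/PS1 trazodone, 20.2, 21.5 and 18.6 TPM in APP/PS1 water and 20.2 to 35.7 TPM (median 32.8) in WT water. Its calls (log2 fold change -0.52 ± 0.17, adjusted p = 0.0344 for APP/PS1 water over WT water, and 0.62 ± 0.18, adjusted p = 0.0291 for trazodone over APP/PS1 water) ended when single libraries were left out. The first was lost without any 1 of the 3 APP/PS1 water libraries or of WT water replicates 1 to 4 (adjusted p 0.0603 to 0.117), and the second without any 1 of the 7 APP/PS1 libraries (0.0502 to 0.089). WT water replicates 5 and 6 lay near the APP/PS1 water values and the other 4 WT libraries did not. Among these 3 genes, only the trazodone call of Ndufaf8 remained once GC and length were corrected (adjusted p = 0.023).

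Ndufaf1, a factor of the early membrane arm, and Ndufaf7, a methyltransferase of the early Q module, were lower with trazodone than in APP/PS1 water. Ndufaf1 had 23.6, 21.2, 24.0 and 22.0 TPM in APP/PS1 trazodone, 29.8, 31.7 and 30.9 TPM in APP/PS1 water and 21.5 to 32.1 TPM (median 25.2) in WT water. The APP/PS1 groups did not overlap, and the log2 fold change was -0.43 ± 0.12 (adjusted p = 0.0242). Ndufaf7 had 56.7, 55.7, 52.5 and 57.9 TPM in APP/PS1 trazodone, 64.8, 70.0 and 66.5 TPM in APP/PS1 water and 55.0 to 69.0 TPM (median 60.9) in WT water, with a log2 fold change of -0.27 ± 0.08 (adjusted p = 0.0302). The Ndufaf1 call ended without APP/PS1 trazodone replicate 2 or 4 or APP/PS1 water replicate 2 or 3 (adjusted p 0.0535 to 0.0775). That of Ndufaf7 ended without APP/PS1 trazodone replicate 1, 2 or 3 or APP/PS1 water replicate 2 or 3 (0.0517 to 0.112). Both ended after the GC and length correction. In APP/PS1 water over WT water neither was called on the TPM table, with log2 fold changes of 0.25 ± 0.11 for Ndufaf1 and 0.13 ± 0.07 for Ndufaf7 (adjusted p = 0.128 and 0.217). Both were called higher on the FPKM table, with 0.32 for Ndufaf1 and 0.21 for Ndufaf7 (adjusted p = 0.0431 and 0.035), and after median-ratio or quantile scaling, with up to 0.35 and 0.26. Ndufaf4, Ndufaf5 and Ndufaf6 passed no test, and Ndufaf4 had 1 APP/PS1 trazodone library at 24.2 TPM beside 8.57 to 9.44 TPM in the others.

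In complex II, Sdhd alone was called among the 4 subunits. Sdhd (MSTRG.23578, chr9:50596357-50603812, minus strand), 1 of the membrane anchors, had 128, 130.4, 117 and 122 TPM in APP/PS1 trazodone, 83.4, 90.7 and 105 TPM in APP/PS1 water and 102 to 127 TPM (median 125) in WT water. The highest APP/PS1 water library passed the lowest WT library, WT water replicate 6, but none of the trazodone libraries. The log2 fold changes were -0.36 ± 0.09 in APP/PS1 water over WT water (adjusted p = 0.0077) and 0.42 ± 0.09 for trazodone over APP/PS1 water (adjusted p = 0.00759). Median-ratio and quantile scaling ended the first call, and the GC and length correction ended the second (adjusted p = 0.0584).

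The catalytic subunit Sdha, which carries FAD, had 357, 328, 315 and 305 TPM in APP/PS1 trazodone, 307, 326 and 319 TPM in APP/PS1 water and 295 to 357 TPM (median 323) in WT water. Its groups overlapped, with log2 fold changes of -0.03 ± 0.07 in APP/PS1 water over WT water (adjusted p = 0.791) and 0.04 ± 0.08 for trazodone over APP/PS1 water (adjusted p = 0.786). Sdhb, the iron-sulfur subunit, had 202, 225, 209.95 and 221 TPM in APP/PS1 trazodone, 203, 202 and 257 TPM in APP/PS1 water and 214 to 229 TPM (median 219.9) in WT water. Sdhc, the other anchor, had 63.2, 66.8, 63.1 and 66.5 TPM in APP/PS1 trazodone, 53.6, 57.1 and 83.3 TPM in APP/PS1 water and 61.9 to 72.3 TPM (median 63.7) in WT water, so 1 APP/PS1 water library lay above and the other 2 below every WT library. Neither was called with all libraries, but without APP/PS1 water replicate 3 Sdhc was lower in APP/PS1 water than in WT water (log2 fold change -0.24, adjusted p = 0.0341, against -0.04 ± 0.11 with it).

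Among the complex II assembly factors, Sdhaf4 and Sdhaf1 were lower in APP/PS1 water and higher with trazodone. Sdhaf4 (MSTRG.137, chr1:23995939-24005656, minus strand), which binds Sdha after its flavin is attached, had 36.6, 43.7, 33.4 and 39.5 TPM in APP/PS1 trazodone, 23.2, 22.2 and 26.0 TPM in APP/PS1 water and 25.5 to 42.6 TPM (median 36.0) in WT water. The lowest WT library, replicate 6, lay within the APP/PS1 water range and the trazodone libraries above it. Its log2 fold changes were -0.56 ± 0.14 in APP/PS1 water over WT water (adjusted p = 0.00888) and 0.67 ± 0.15 for trazodone over APP/PS1 water (adjusted p = 0.00791), and both calls were kept after the correction. Sdhaf1, which helps load the iron-sulfur clusters of Sdhb, had 14.1, 12.6, 11.9 and 15.5 TPM in APP/PS1 trazodone, 8.84, 9.34 and 11.8 TPM in APP/PS1 water and 10.8 to 13.6 TPM (median 13.2) in WT water. Its calls (log2 fold change -0.35 ± 0.11, adjusted p = 0.0392, and 0.42 ± 0.12, adjusted p = 0.0333) were fragile. The first ended without APP/PS1 water replicate 1 or 2 or any 1 of WT water replicates 1 to 5 (adjusted p 0.0595 to 0.155), and the second without APP/PS1 trazodone replicate 1, 2 or 4 or APP/PS1 water replicate 1 or 2 (0.0508 to 0.122). Both were also lost on FPKM and after median-ratio or quantile scaling. Sdhaf2, which flavinates Sdha, and Sdhaf3, which works beside Sdhaf1, were not called: Sdhaf2 averaged 34.1 ± 3.44 TPM in APP/PS1 trazodone, 36.9 ± 1.54 TPM in APP/PS1 water and 34.6 ± 3.02 TPM in WT water.

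Of the genes that belong by name only, Ndufa4 averaged 364 ± 20.3 TPM in APP/PS1 trazodone, 328 ± 32.0 TPM in APP/PS1 water and 358 ± 6.48 TPM in WT water, the highest level of the whole set, and was not called. Ndufa4l2 (MSTRG.2908, chr10:127514967-127517154, plus strand), known as a gene induced by hypoxia, had 9.55, 7.93, 5.63 and 11.8 TPM in APP/PS1 trazodone, 5.78, 3.94 and 3.38 TPM in APP/PS1 water and 6.62 to 9.77 TPM (median 8.06) in WT water. It was lower in APP/PS1 water than in WT water (-0.85 ± 0.20, adjusted p = 0.008) and higher with trazodone than in APP/PS1 water (0.91 ± 0.22, adjusted p = 0.0126; 0.0558 without APP/PS1 water replicate 3), and the GC and length correction ended both calls. The pseudogene Ndufb4c had 3.52, 3.83, 4.63 and 5.06 TPM in APP/PS1 trazodone, 6.81, 8.14 and 11.1 TPM in APP/PS1 water and 3.77 to 8.06 TPM (median 5.59) in WT water, and was lower with trazodone than in APP/PS1 water (-0.93 ± 0.23, adjusted p = 0.0145; 0.0664 without APP/PS1 water replicate 3). Its reads can be hard to tell from those of Ndufb4. Of the entries left out by name, Ndufb1-ps averaged 48.1, 70.5 and 46.1 TPM in APP/PS1 trazodone, APP/PS1 water and WT water. It was higher in APP/PS1 water than in WT water (0.58 ± 0.13, adjusted p = 0.00651) and lower with trazodone (-0.52 ± 0.14, adjusted p = 0.0243). These directions are opposite to those of the called accessory genes. Both calls were kept after the correction (0.00178 and 0.00726). Ndufa12-ps, Ndufab1-ps and Ndufs5-ps were not called. Ndufa11b and Ndufs6b lay under the minimum of 0.5 TPM, at most 0.492 and 0.802 TPM in any library, and were listed at 0 in 7 and 5 of the 13 libraries. For Ndufs6b the exact two-sided permutation test gave p = 0.0571 for trazodone against APP/PS1 water (35 splits), p = 0.393 for APP/PS1 water against WT water and p = 0.552 for trazodone against WT water. For Ndufa11b the same exact test gave p = 0.714, 0.952 and 0.21.

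The authors' counting is not stated to use strand. Of the 19 genes called lower in APP/PS1 water, 9 share sequence positions with an annotated gene on the opposite strand (Ndufa11, Ndufa2, Ndufa3, Ndufa4l2, Ndufaf2, Ndufaf3, Ndufb11, Sdhaf1 and Sdhaf4), as do 10 of the 20 called higher with trazodone. For these genes, reads of the partner cannot be told apart. Such partners are not particular to the called genes. Ndufa13, Ndufb5, Sdha, Ndufs1, Ndufs3 and Ndufv2, not called on TPM with all libraries, have them too. Ndufa12, Ndufb10, Ndufc2, Ndufs5, Ndufb7, Ndufv3, Ndufs8 and Sdhd have no such partner on the opposite strand. Ndufc2 does share positions with Gm16053, a processed pseudogene on its own strand.

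The mitochondrially encoded complex I genes, the membrane core of the enzyme, were called in the opposite directions. Of 6 mt-Nd genes (mt-Nd4 was not analysed here), 4 were higher in APP/PS1 water than in WT water, with a list median log2 fold change of 0.60, and 5 were lower with trazodone than in APP/PS1 water, with a median of -0.60. Of all genes, 6.19% were called higher in the first comparison and 3.92% lower in the second. No mt-Nd gene was called in trazodone against WT water. mt-Nd6, the 1 member read from the other strand of the mitochondrial DNA, had 3953, 4874, 5196 and 5874 TPM in APP/PS1 trazodone, 9742, 8075 and 10408 TPM in APP/PS1 water and 3868 to 6277 TPM (median 4935) in WT water (log2 fold changes 0.91 ± 0.16, adjusted p = 0.00134, in APP/PS1 water over WT water and -0.93 ± 0.18, adjusted p = 0.0035, for trazodone over APP/PS1 water). As strand use in counting is not stated, reads of the opposite strand at mt-Nd6 cannot be told apart from its own. The log2 fold changes of mt-Nd3 were 0.70 ± 0.10 and -0.51 ± 0.11, those of mt-Nd4l 0.52 ± 0.14 and -0.63 ± 0.15, and that of mt-Nd5 with trazodone -0.57 ± 0.17. mt-Nd2, a core pump subunit, had 7717, 7009, 9035 and 7442 TPM in APP/PS1 trazodone, 13175, 12179 and 12809 TPM in APP/PS1 water and 6771 to 9162 TPM (median 7950.2) in WT water. After quantile normalization the directions were lost: the median was -0.08 in APP/PS1 water over WT water, with 2 genes higher, and 1 gene was lower with trazodone. In those fits 11.4% of all genes were higher and 8.5% lower, in that order. With GC and length corrected, 3 of the mt-Nd genes (mt-Nd2, mt-Nd3 and mt-Nd6) were still higher in APP/PS1 water and none was lower with trazodone, beside 6.35% and 1.62% of all genes. TPM are shares, so a larger mitochondrial share lowers all other values. Rescaled without mitochondrially encoded genes, 17 members were lower and 0 higher in APP/PS1 water over WT water, and 18 were higher and 3 lower with trazodone. Of all genes in these fits, 13.4% were lower and 7.89% higher in the first comparison, and 9.26% were higher and 5.74% lower in the second.

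Among 10 other complex I assembly factors, 3 were lower in APP/PS1 water than in WT water (Ecsit, Foxred1 at -0.33 ± 0.10 and Dmac2 at -0.32 ± 0.08 on the log2 scale), beside 17.5% of all genes, and 0 higher. With trazodone against APP/PS1 water, Ecsit and Dmac2 (0.36 ± 0.08) were higher and Tmem126b (-0.22 ± 0.07) lower, beside 12.5% of all genes higher and 3.92% lower. Once GC and length were corrected, Ecsit and Esrra were still lower in APP/PS1 water (adjusted p = 0.0263 and 0.02) and none of these genes was called with trazodone. Ecsit, which acts with Ndufaf1 and Tmem126b on the membrane arm, had 48.2, 48.5, 52.6 and 51.9 TPM in APP/PS1 trazodone, 32.2, 40.8 and 39.8 TPM in APP/PS1 water and 49.6 to 52.9 TPM (median 50.7) in WT water. Its APP/PS1 water libraries lay below all others (-0.45 ± 0.07, adjusted p = 0.000723, over WT water, and 0.42 ± 0.08, adjusted p = 0.00314, for trazodone over APP/PS1 water). Of 8 regulators of nuclear respiratory genes, 1 was lower in APP/PS1 water and higher with trazodone, a share of 12.5% beside 17.5% of all genes called lower and 12.5% called higher in those comparisons. It was Esrra, the nuclear receptor ERR alpha, which had 56.2, 63.5, 59.1 and 43.9 TPM in APP/PS1 trazodone, 31.8, 29.9 and 31.5 TPM in APP/PS1 water and 48.1 to 72.1 TPM (median 55.0) in WT water. Its log2 fold changes were -0.85 ± 0.12 (adjusted p = 0.000264) in APP/PS1 water over WT water and 0.82 ± 0.13 (adjusted p = 0.0013) for trazodone over APP/PS1 water. Nrf1 and Gabpa, whose motif letters were searched above, had log2 fold changes of -0.08 ± 0.10 and 0.13 ± 0.10 in APP/PS1 water over WT water and were not called.

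The members' changes went along with the length and GC content of their transcripts. The 19 genes called lower in APP/PS1 water had a median length of 908 bases and a median GC content of 52.1%, and the 32 other genes that are not pseudogenes had 1208 bases and 48.2%. The accessory genes are short, with a median of 868 bases against 1623 for the core. Over 51 members, the log2 fold change in APP/PS1 water over WT water had Pearson's r = -0.422 with GC content and 0.425 with log2 length, as a description without a test, since all points share the same libraries. After the correction r was -0.0537 with GC content and 0.324 with length. For trazodone over APP/PS1 water r was 0.407 with GC content and -0.51 with length, and 0.00267 and -0.362 after the correction. The median GC content was 51.4% for the accessory genes and 53.8% for the core, so the accessory genes are shorter but not richer in GC. The parts of class, length and GC content in the changes were not tested apart.

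**Figure D4:**
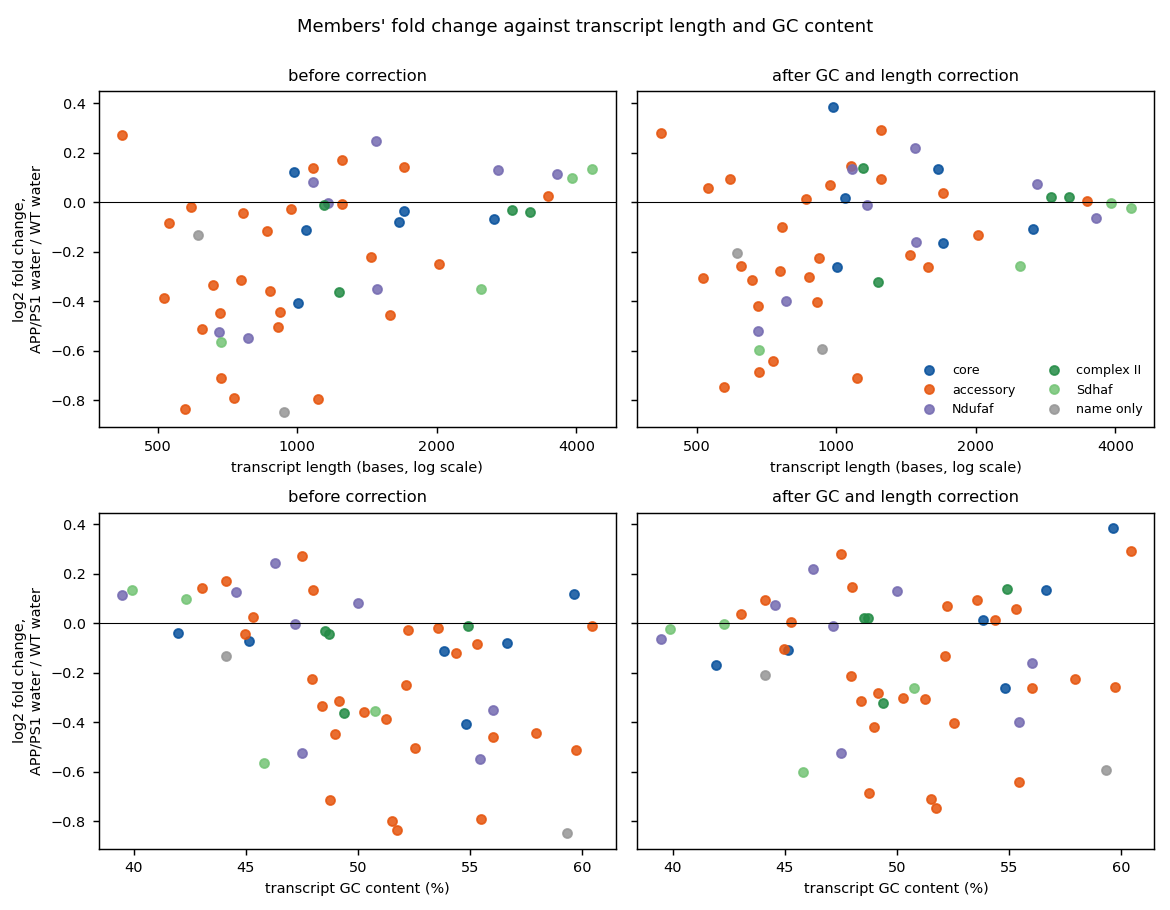
Log2 fold change of the same members in APP/PS1 water over WT water (y axis) against transcript length in bases (log scale, upper panels) and GC content in percent (lower panels), before (left) and after (right) the GC and length correction, coloured by class. Points below -0.6 are genes of at most 1110 bases in both upper panels, and the downward trend with GC content on the left is absent on the right.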

How the data were processed

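Poly(A) RNA-seq was done on 13 libraries of mouse cortex. Per the submitters' processing notes, reads were handled with fastp, STAR and DESeq2 on GRCm38 (mm10). Versions, annotation release and strand use, not given in the sources used here, could not be added. The authors deposited 1 table of TPM and 1 of FPKM per gene, per the file headers. No counts were used, so TPM were tested on a log scale. TPM equalled FPKM rescaled to 1 common total per library, to within 0.00868 TPM. Depth was estimated from the spacing of low FPKM values, and it limits the precision of the genes at a few TPM.

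The 18612 genes averaging 0.5 TPM or more entered a fit of log2(TPM + 0.5) in limma 3.58.1, run under R 4.3.3 (1 fit of 3 groups, trend in the variance, Benjamini-Hochberg adjustment over all genes, threshold 0.05). The fit was tested on simulated data. Python 3.11.15 with pandas 2.3.3 and matplotlib 3.10.9 served for tables and plots. For the GC and length correction, each library's deviation from the gene mean was smoothed on GC content and transcript length by loess (span 0.4, 18253 genes with GENCODE M21 values). Promoters are RefSeq windows on GRCm38.p6. Alternatives were the pseudocount, the minimum, FPKM, other scalings, a fit of the groups compared, replicate blocks and each library left out.

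The members and gene lists were chosen with earlier results of these data known. By the rule for named genes, values in every library were given for the called members with the largest changes (up to 8 per comparison and direction), the core and complex II subunits and the members below the minimum, and for up to 4 called genes per pathway list. Values of other members were added after their results were seen. No 2 libraries of a group had identical values. Nothing states that libraries with the same number are paired, so no block was used. The values of 1 core gene are not reported here; it is part of the counts and sums.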

Additional observations from a re-analysis of the deposited data

Results flagged for a closer look

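In 104 groups of values (each tested member in the APP/PS1 trazodone and in the WT water libraries), 10 had 1 library far from the others of its group by Dixon's 95% limit. Chance flags about 1 in 20 groups. In the APP/PS1 trazodone group, replicate 3 was low for Ndufa6, at 139 TPM beside 207 to 214 TPM in the others. The same library was low for Ndufs7, at 185 TPM, and for Ndufs4, at 50.05 TPM. Replicate 2 was high for the assembly factor Ndufaf4, at 24.2 TPM, and replicate 1 for Ndufaf2, at 32.8 TPM. In the WT water group all 5 such values belonged to replicate 6. It was high for Ndufab1, at 148 TPM, and for Ndufaf4, at 12.6 TPM. It was low for Ndufaf8, at 17.5 TPM, for Ndufaf3, at 40.9 TPM, and for Sdhaf1, at 10.8 TPM. For Ndufaf8, Ndufaf3 and Sdhaf1 it held the lowest WT value, so leaving it out could not have turned the sign of their calls.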

How the results depend on the processing

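No call of a complex I or II member changed sign under any alternative: over those that keep all libraries, 482 results stayed past the threshold and 106 did not. The mt-Nd genes, the other assembly factors and the regulators were not part of this count. It pools alternatives that hardly move the estimates with others that do. The changed pseudocounts kept all 19 calls in APP/PS1 water over WT water and all 23 in trazodone over APP/PS1 water. The GC and length correction kept 9 of the 19 and 11 of the 23. In APP/PS1 water over WT water (0 higher and 19 lower on TPM), the count of higher members was 2 on FPKM, 2 after median-ratio scaling, 5 after quantile normalization and 1 after the GC and length correction. The count of lower members was 12 after median-ratio scaling, 11 after quantile normalization and 9 after the GC and length correction. In trazodone over APP/PS1 water (20 higher and 3 lower), 10 were higher after the GC and length correction and 5 lower after quantile normalization. In trazodone over WT water (0 and 0), 1 was lower after the GC and length correction, beside 0.405% of all genes. The shares of all genes in the other fits stand with the results above. After quantile normalization the median over members turned to 0.053 in APP/PS1 water over WT water and to -0.018 in trazodone over APP/PS1 water, and that of all genes in trazodone over APP/PS1 water to -0.0103, as it did after the GC and length correction (-0.0136). The cause was not tested.

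Nothing states that replicate numbers pair the libraries. By the numbers in the titles, 2 of 10 same-numbered pairs had deviations correlated over 0.1, and 2 of 10 by the library numbers. So few pairs cannot exclude a pairing. With the title number as a replicate block, 1 member was higher and 21 were lower in APP/PS1 water over WT water. Of all genes in that fit, 5.64% were higher and 16% lower. With the library number as a block, 9 members were lower in APP/PS1 water over WT water, beside 9.24% of all genes. In trazodone over APP/PS1 water 1 member was lower, beside 1.58% of all genes. With the title block and the GC and length correction together, 2 members were higher and 13 lower in APP/PS1 water over WT water. Of all genes, 5.25% were higher and 5.64% lower. In trazodone over APP/PS1 water 12 members were higher (1.99% of all genes), and in trazodone over WT water 1 was lower (0.197% of all genes). In this fit the medians turned to -0.0255 over members in trazodone over WT water and to -0.0136 over all genes in trazodone over APP/PS1 water.

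With each library left out in turn, members called in APP/PS1 water over WT water ranged from 0 to 1 higher and from 15 to 22 lower. Of all genes in these fits, 4.21 to 6.98% were higher and 12.8 to 18.1% lower. In trazodone over APP/PS1 water they ranged from 16 to 20 members higher and from 0 to 4 lower, beside 8.88 to 13% and 2.12 to 4.23% of all genes. In trazodone over WT water they ranged from 0 to 0 higher and from 0 to 1 lower, beside 1.35 to 2.07% and 0.15 to 0.29% of all genes. The 1 higher member was Ndufa1 without APP/PS1 water replicate 1, Ndufaf1 without WT water replicate 3 and Ndufb4c without WT water replicate 5. With 3 to 6 libraries a group, a gene that was not called is not shown to be unchanged.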
